A study of Homo sapiens with 2 samples.

Results

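A set of 9 genes of the class I antigen presentation pathway was examined for acetylation of histone H4 on lysine 5 (H4K5ac) in FaDu, an established line of human head and neck cancer. They were chosen by name, HLA-B, HLA-C, HLA-E, HLA-F, B2M, TAP1, TAP2, TAPBP and NLRC5, and are 9 of the 19974 protein-coding genes that RefSeq (GRCh38.p14) places on the autosomes or X. All peaks overlapping a gene span or the 10000 bp on either side were taken, which gave 39 distinct peaks in normoxia and 56 in hypoxia. Both libraries were made by chromatin immunoprecipitation and sequencing (ChIP-seq) with 75 bp single-end reads, 1 from cells in normoxia and 1 after 18 h of hypoxia at 1% oxygen. H4K5ac is the target according to the labels of both samples, but the text describing the design names a different histone mark. The culture protocol mentions lentiviral knockdown of METTL4, and the labels do not say whether either library had it. With 1 library per condition there is no replicate check, no p-value is given, and all intervals below are 95% exact intervals that cover counting error only.

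Class I molecules show peptides from inside the cell to cytotoxic T cells. HLA-B and HLA-C encode classical heavy chains, HLA-E and HLA-F non-classical ones, and B2M the light chain they share. Peptides made by the proteasome are pumped into the endoplasmic reticulum by the transporter of TAP1 and TAP2, and tapasin, the product of TAPBP, bridges that transporter to empty class I molecules. NLRC5 is the transactivator of this gene set, and interferon raises the whole pathway. Acetylation of histone H4 at lysine 5 is a mark of active chromatin that is found at gene starts and enhancers. Low surface class I is a known way for head and neck tumours to escape T cells.

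The promoters are shown because peak edges or gaps described below fall within those of HLA-C, HLA-F, B2M and TAP2. For comparison they are joined by those of TAP1 and TAPBP, which lay wholly under peaks over the stretch shown, and of HLA-B, which had no peak there. Of the 9 genes, 7 had an entry in the RefSeq promoter table (GRCh38.p14), and HLA-E and NLRC5 had none. The stretches end at the base before the gene start and run 5′ to 3′ in the direction of transcription, over 150 bp for B2M and 180 bp for the others. Capitals mark matches, on either strand, to the core of the interferon-stimulated response element (ISRE; GAAA, any 2 bases, GAAA), to the cyclic AMP response element core TGACG and to CCAAT.
HLA-B, chr6:31357180-31357359, minus strand: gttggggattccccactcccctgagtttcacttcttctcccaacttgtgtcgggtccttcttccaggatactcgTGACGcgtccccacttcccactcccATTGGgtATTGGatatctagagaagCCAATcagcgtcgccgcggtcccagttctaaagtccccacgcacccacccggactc
HLA-C, chr6:31272093-31272272, minus strand: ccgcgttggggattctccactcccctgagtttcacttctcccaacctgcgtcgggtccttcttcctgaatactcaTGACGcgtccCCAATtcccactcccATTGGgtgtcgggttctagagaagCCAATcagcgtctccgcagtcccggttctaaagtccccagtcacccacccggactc
HLA-F, chr6:29723254-29723433, plus strand: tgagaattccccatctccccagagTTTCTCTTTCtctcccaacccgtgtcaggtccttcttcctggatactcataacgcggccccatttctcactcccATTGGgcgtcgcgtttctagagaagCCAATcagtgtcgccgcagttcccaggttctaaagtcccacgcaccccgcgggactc
B2M, chr15:44711367-44711516, plus strand: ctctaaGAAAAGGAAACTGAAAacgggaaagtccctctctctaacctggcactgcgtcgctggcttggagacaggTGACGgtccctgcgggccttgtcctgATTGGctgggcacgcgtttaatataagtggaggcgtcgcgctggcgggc
TAP1, chr6:32853705-32853884, minus strand: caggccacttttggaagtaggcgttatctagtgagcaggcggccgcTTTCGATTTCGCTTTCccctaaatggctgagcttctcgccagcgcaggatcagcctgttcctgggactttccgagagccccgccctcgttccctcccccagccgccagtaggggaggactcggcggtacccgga
TAP2, chr6:32838740-32838919, minus strand: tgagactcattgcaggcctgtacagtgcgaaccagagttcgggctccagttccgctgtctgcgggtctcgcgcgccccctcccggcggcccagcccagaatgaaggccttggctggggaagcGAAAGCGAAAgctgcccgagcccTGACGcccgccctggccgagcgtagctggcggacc
TAPBP, chr6:33314079-33314258, minus strand: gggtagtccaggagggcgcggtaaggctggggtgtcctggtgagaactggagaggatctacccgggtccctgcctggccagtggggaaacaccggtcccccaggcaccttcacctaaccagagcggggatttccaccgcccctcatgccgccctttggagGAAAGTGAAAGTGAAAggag

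These matches describe letters and not bound sites. The ISRE core was found in 5 of the 7 promoters of 300 bp (HLA-F, B2M, TAP1, TAP2 and TAPBP), against 3.57% of 34943 promoters of the table. TGACG was found in 4 (HLA-B, HLA-C, B2M and TAP2), against 24.5%, and CCAAT in 5 (HLA-B, HLA-C, HLA-F, B2M and TAP1), against 34.6%. The looser kappa B pattern (GGG, any 5 bases, CC) was present in 6 and in 58.6% of all promoters. Of the cores bound by hypoxia-inducible factors, ACGTG was in none of the 7 and in 21.4% of all promoters, and GCGTG was in 4 and in 36.5%. TTCNNNGAA, the interferon gamma activation site, was in none and in 7.66%. Matches on opposite strands can overlap, as those to the kappa B pattern in HLA-B do.

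The normoxia list held 120033 peaks and the hypoxia list 258195, so a normoxia peak was compared with the longer list throughout. Peaks of the 2 lists were called partners when they overlapped by at least 1 bp. A peak is called strong here when its −log10 q-value was at least 10, and folds and q-values are the authors' values, each set against the background of its own library. Reads at a summit were recovered from the fold and the p-value, came out whole within 0.02 for all 101 peak entries, and show the depth behind each peak. Differences in fold, q-value or reads between the libraries were not read as changes, because depth and the peak-calling setting may differ. Of the squamous epithelial markers, KRT5, DSG3 and PKP1 were marked at their starts in both lists. KRT14 and KRT17 had no listed start and were marked at an end of the span in both lists. TP63 was marked at no listed start, although its window held 25 normoxia and 37 hypoxia peaks. Of the lymphoid or myeloid markers reported here CD14 was marked in both lists, CD3E in hypoxia only and PTPRC and CD79A in neither. CD3E had no listed start, and its peak lay at the high-coordinate end of the span, which may not be its start. The endothelial markers PECAM1 and CDH5, also without a listed start, were marked in hypoxia only, at an end of the span.

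All 9 antigen presentation genes carried H4K5ac within 1000 bp of the start in both conditions. Of all protein-coding genes 69.7% did so, so the mark was the usual state of a gene start. None of the 9 was marked in normoxia only, against 0.846% of all genes. For HLA-E and NLRC5 either end of the span was used, and the peaks lay at the low-coordinate end. The same 9 were marked in both lists when strong peaks alone were kept. With the 300 bp promoter in place of the 1000 bp window, 6 of the 7 genes with an entry were marked in both lists, and HLA-B in neither. The share of all genes marked in both lists was not computed under either of these settings, so whether these counts are usual is not known.

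**Figure D1:**
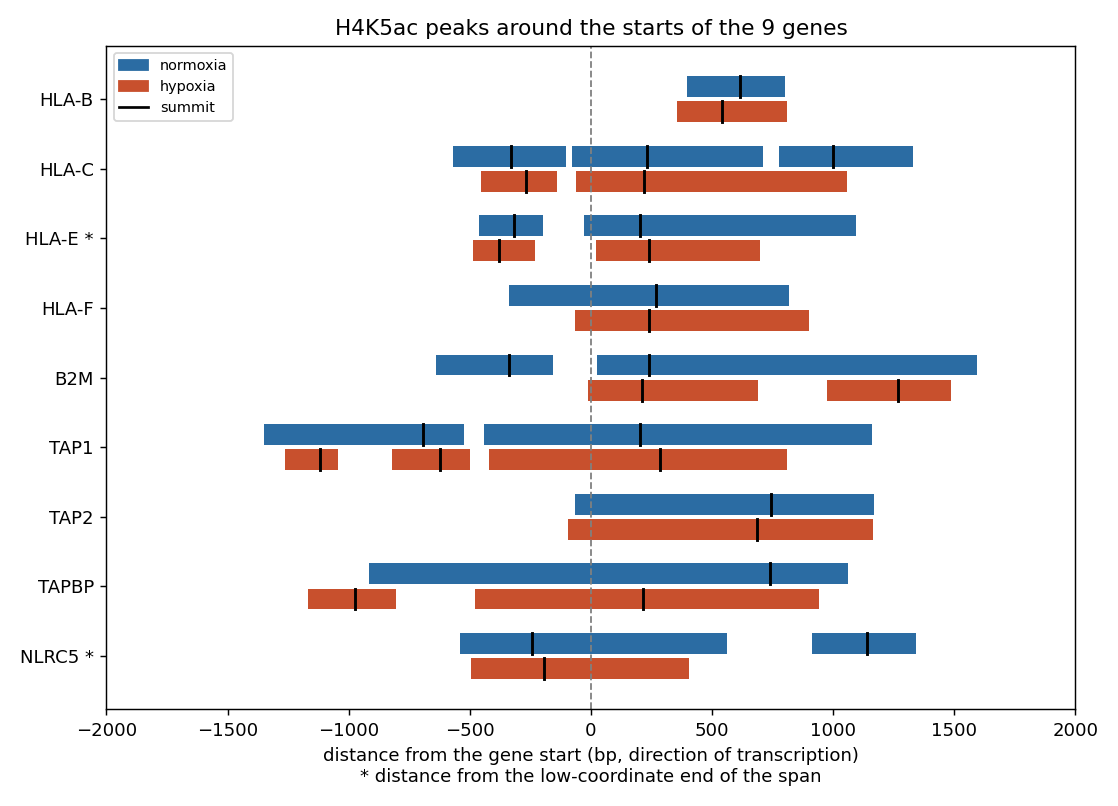
Peaks within 2000 bp of the start of each gene, in bp along the direction of transcription (for HLA-E and NLRC5, marked with an asterisk, from the low-coordinate end of the span). Blue bars are normoxia peaks, orange bars hypoxia peaks and black ticks summits; bars are cut at the plot edge. HLA-B alone has no bar within 357 bp of its start, and HLA-C and HLA-E have a gap at or just upstream of the start in both conditions.

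HLA-B, a classical heavy chain gene (chromosome 6, 31353875 to 31357179), had a single peak in each condition and none over its promoter. The normoxia peak (31356378 to 31356783) was 406 bp wide, had a fold of 6.27 and had 26 reads at its summit. The hypoxia peak (31356368 to 31356822) was 455 bp wide, had a fold of 12.8 and had 59 reads. Both lay inside the gene, from 396 to 801 bp and from 357 to 811 bp after the start, and their summits were 71 bp apart. The normoxia peak lay wholly within the hypoxia peak. None of the promoter letters shown in capitals for HLA-B was inside a peak of either list. The local background was 3.31 reads in normoxia and 3.68 in hypoxia, against 7.74 to 15.7 reads at the start peaks of HLA-C, HLA-E and HLA-F. An uncovered 250 bp upstream of the start was seen at 15.6% of starts of genes marked in both lists in normoxia and at 13.9% in hypoxia.

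HLA-C, the other classical heavy chain gene (chromosome 6, 31268749 to 31272092), had 3 peaks in normoxia and 2 in hypoxia, and was the only one of the 9 genes with fewer peaks in hypoxia. Of all genes 5.86% had fewer. Its start peak in normoxia (31271380 to 31272172) had a fold of 9.13, −log10 q of 77.3 and 132 reads at the summit. In hypoxia (31271035 to 31272153) the values were 12.1, 139.5 and 200 reads. The hypoxia peak spanned 2 normoxia peaks that were separated by a gap of 62 bp within the gene. The strongest summits were 9 bp apart, at 230 bp after the start in normoxia and 221 bp in hypoxia. A second peak lay upstream in both conditions, from -569 to -103 in normoxia (negative positions are upstream of the start) and from -452 to -139 in hypoxia. The upstream peak was strong in normoxia (−log10 q-value 19.2) and not in hypoxia (6.90).

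Between these upstream and start peaks the HLA-C promoter was free of peaks in both lists. The gap ran from -102 to -81 in normoxia and from -138 to -62 in hypoxia. In the sequence shown, TGACG lies from -105 to -101, so the edge of the normoxia gap crossed it and the hypoxia gap held it whole. The CCAAT at -95 to -91 lay in the gap in both conditions. The reverse copy at -80 to -76 lay in the normoxia start peak and in the hypoxia gap, and the CCAAT at -56 to -52 lay in the start peak of both lists.

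HLA-E, a non-classical heavy chain gene whose product is read by natural killer cells (chromosome 6, 30489509 to 30494194), had 3 peaks in normoxia and 4 in hypoxia. The peak at its low-coordinate end was 1125 bp wide in normoxia (fold 7.19, 89 reads) and 680 bp wide in hypoxia (fold 9.10, 128 reads). The hypoxia peak lay wholly within the normoxia peak and their summits were 35 bp apart. As at HLA-C, a narrow second peak lay across a gap from the first, and its widths were 266 bp in normoxia and 258 bp in hypoxia. The gap measured 169 bp in normoxia and 249 bp in hypoxia. The remaining peaks lay far from the gene start, 1 in normoxia (11345 to 11589 bp from that end) and 2 in hypoxia (from -7961 to -7741 and from -7625 to -7139). They had no partner, and their −log10 q-values were between 2.17 and 5.87.

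HLA-F, a non-classical gene whose product is largely held inside cells (chromosome 6, 29723434 to 29738532), had 2 peaks in normoxia and 3 in hypoxia. Its start peak was 1155 bp wide in normoxia (fold 9.49, 82 reads) and 965 bp wide in hypoxia (fold 11.4, 126 reads), with summits 27 bp apart. The normoxia fold was the highest of all normoxia peaks at the 9 genes. The upstream edges differed: the normoxia peak began at -338 and covered all 250 bp upstream of the start, and the hypoxia peak began at -65 and covered 65 bp. The ISRE core match at -156 to -147 was therefore inside the normoxia peak and outside the hypoxia peak. A hypoxia peak without a partner lay 18704 to 19208 bp after the start, beyond the gene end, and was not strong (fold 4.01, 20 reads).

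Similarity among class I genes limits where 75 bp reads can be placed. The 300 bp promoters of HLA-B and HLA-C were 88.5% identical over 305 aligned columns, HLA-B and HLA-F 80.1%, and HLA-C and HLA-F 79.3%. Against the promoters of B2M, TAP1, TAP2 and TAPBP the same 3 genes had 49.9 to 53.5%. The longest run shared by HLA-B and HLA-C was 25 bp, and none of the 226 stretches of 75 bp in any of these promoters occurred in another promoter of the table. That search covers promoters of the reference and not exons, pseudogenes or the alleles of FaDu cells, which were not analysed here. The HLA-B peak lies outside the sequence searched. How reads with several placements were treated is not given in the sources used here, so the peaks of HLA-B, HLA-C, HLA-E and HLA-F are uncertain in number, and whether that bears on the low background of HLA-B was not tested. Without these 4 genes the other 5 had 30 normoxia and 46 hypoxia peaks.

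B2M, the light chain gene (chromosome 15, 44711517 to 44718145), had 3 peaks in each condition, but they were arranged differently. In normoxia a peak of 1569 bp (44711543 to 44713111) ran from 26 to 1594 bp after the start, with a fold of 6.26, −log10 q of 49.5 and 113 reads. In hypoxia the same stretch held 2 peaks, of 702 bp (44711505 to 44712206, fold 10.2, −log10 q-value 90.1, 142 reads) and 514 bp (fold 5.21, −log10 q-value 25.4, 67 reads), with 284 bp between them. The leading summits were 31 bp apart, at 240 and 209 bp after the start. Covered length in the window was 2307 bp in normoxia and 1487 bp in hypoxia, the lowest hypoxia to normoxia ratio of the 9 genes (0.645).

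Upstream of B2M, normoxia had a strong peak that hypoxia lacked. It ran from -641 to -155 (44710876 to 44711362), with a fold of 3.39, −log10 q of 13.6 and 61 reads at the summit over a local background of 17.3. It also lies within 1000 bp of the start of the neighbouring gene PATL2, so the peak cannot be given to B2M alone. No other strong peak at the 9 genes, in either list, was without a partner. Of all protein-coding genes 2.02% had such a normoxia peak in the window and 15.6% such a hypoxia peak. In normoxia the stretch from -154 to 25 was free of peaks, and it holds the overlapping ISRE core matches, the TGACG and the reverse CCAAT shown in the B2M sequence. In hypoxia the first peak began at -12, and these matches were again outside any peak.

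TAP1, which encodes a subunit of the peptide transporter (chromosome 6, 32845209 to 32853704), had 6 peaks in its window in normoxia and 7 in hypoxia, each with a partner in the other list. The peak over its start was 1600 bp wide in normoxia (32852545 to 32854144, fold 5.00, 67 reads) and 1231 bp wide in hypoxia (32852896 to 32854126, fold 6.45, 79 reads), with summits 81 bp apart. It covered all 250 bp upstream of the start in both conditions, including the overlapping matches to ISRE core. PSMB9, an immunoproteasome gene that starts beside TAP1, lay across a short gap, where 1 normoxia peak of 828 bp faced 2 hypoxia peaks of 323 and 219 bp. A gap of 83 bp in normoxia and 75 bp in hypoxia separated these peaks from the TAP1 peak. The highest fold in the TAP1 window was at neither start: a peak beyond PSMB9 (32860885 to 32861872 in normoxia, 32861313 to 32861782 in hypoxia) had folds of 8.50 and 12.4 and widths of 988 and 470 bp.

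TAP2, the other transporter subunit gene (chromosome 6, 32821831 to 32838739), had nearly the same start peak in both lists. It was 1237 bp wide in normoxia (32837569 to 32838805, fold 7.60, 111 reads) and 1261 bp wide in hypoxia (32837574 to 32838834, fold 10.5, 144 reads), and 1232 bp were shared. The summits were 56 bp apart and lay 743 and 687 bp after the start. Its window held 5 normoxia and 8 hypoxia peaks, of which 3 in each list are also in the TAP1 window. Inside the gene, hypoxia had 3 peaks without a partner, with folds of 2.58, 3.30 and 4.48 and 10 to 18 reads at the summit. Their local background was 3.24 to 3.27 reads. None of them was strong.

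TAPBP, the tapasin gene (chromosome 6, 33299694 to 33314078), had the start peak whose summit differed most in place. In normoxia a peak of 1977 bp (33313017 to 33314993, fold 3.98, 90 reads) had its summit 739 bp after the start. In hypoxia it corresponded to a peak of 1418 bp (33313138 to 33314555, fold 5.31, 141 reads) with its summit 215 bp after the start, and to a second of 363 bp further upstream. The leading summits were thus 524 bp apart. Both peaks covered the ISRE core matches beside the start. The window held 6 normoxia and 8 hypoxia peaks, most of them near the neighbours PFDN6 and WDR46, RGL2 and DAXX. The local background was high at the gene start, with 21.9 reads in normoxia and 25.8 in hypoxia.

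NLRC5, the class I transactivator gene (chromosome 16, 56989557 to 57083520), had the most peaks and the most unequal number, 13 in normoxia and 23 in hypoxia. The ratio was 1.77, with an interval of 0.859 to 3.80 that includes equality and also the ratio of 2.04 near all protein-coding genes. Its low-coordinate end had a peak of 1105 bp in normoxia (56989015 to 56990119, fold 5.22, −log10 q-value 43.5, 118 reads) and of 898 bp in hypoxia (56989064 to 56989961, fold 7.79, −log10 q-value 98.8, 190 reads). The hypoxia peak lay within the normoxia peak, with summits 51 bp apart. The highest fold was inside the gene, 71041 to 72369 bp from that end in normoxia (fold 6.72) and 71106 to 72302 bp in hypoxia (fold 9.33). Those summits were 5 bp apart, the closest of all one-to-one pairs at the 9 genes.

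**Figure D2:**
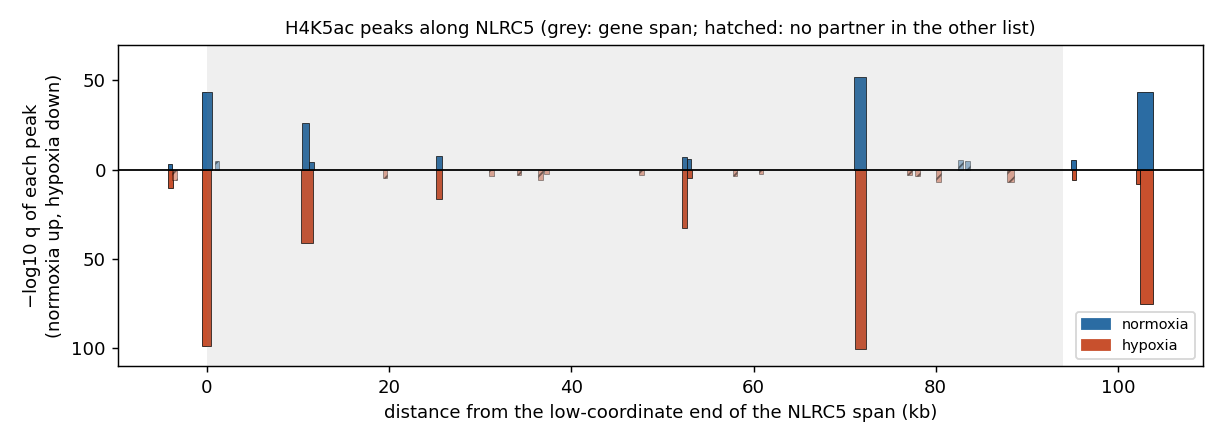
Peaks along NLRC5, with distance from the low-coordinate end of the span in kb on the horizontal axis and the −log10 q-value of each peak as bar height, normoxia upward and hypoxia downward; bars narrower than 500 bp are widened to be seen. Hatched bars have no partner in the other list. The 13 hypoxia peaks without a partner are all low, at 7.08 or less, and lie among taller bars found in both lists.

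The additional NLRC5 peaks in hypoxia were weak. Of the 23 hypoxia peaks, 10 had a normoxia partner and 13 did not, and 12 of those 13 had their summit in the gene span. The share with a partner was 43.5% (23.2 to 65.5%), against 35.7% of hypoxia peaks near all protein-coding genes. The 13 had −log10 q-values of 2.43 to 7.08 and 22 to 56 reads at the summit, with a median width of 251 bp. The 10 with a partner had a median −log10 q-value of 24.6, 73 reads and a width of 549.5 bp. Weaker and narrower peaks were also usual without a partner over the whole hypoxia list. The medians there were a −log10 q-value of 3.86 and 263 bp without a partner, against 10.0 and 445 bp with one. In the other direction 3 of 13 normoxia peaks had no hypoxia partner, with −log10 q-values of 4.85 to 5.43. A partner was found for 76.9% of the normoxia peaks, against 71.1% near all protein-coding genes. Strong peaks numbered 4 in normoxia and 7 in hypoxia. Each of those 7 had a partner, and 3 of the partners were not strong in normoxia, 2 within the gene (7.59 and 7.35) and 1 outside it (3.10).

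Over the 9 genes together, hypoxia had more peaks but about the same covered length. The 39 normoxia and 56 hypoxia peaks gave a ratio of 1.44 (0.937 to 2.22), which includes equality. The ratio near all protein-coding genes was 2.04 and over the whole lists 2.15, and both lie within that interval too. Peaks covered 30568 bp in normoxia and 31139 bp in hypoxia, a ratio of 1.02, against 1.56 near all protein-coding genes. Without NLRC5 there were 26 and 33 peaks, a ratio of 1.27 (0.736 to 2.21), over 21338 and 19555 bp. With the hypoxia list limited to as many peaks as the normoxia list, the 9 genes had 39 and 40 peaks.

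By gene, 6 of the 9 had more peaks in hypoxia, 2 (HLA-B and B2M) had equal numbers and 1 (HLA-C) had fewer. Of all protein-coding genes 79.0% had more, 15.1% equal numbers and 5.86% fewer. None of the 9 had at least 2 times as many peaks in hypoxia, against 47.5% of all genes. That share includes genes with a hypoxia peak and none in normoxia, and 17671 of the 19974 genes had a normoxia peak. The share among genes marked in both lists was not computed. None had at least 2 times as many in normoxia, against 1.54%. The median ratio over the 9 genes was 1.33, with a range of 0.667 to 1.77. Over genes marked at the start in both lists the median was 1.69, with quartiles of 1.25 and 2.40. The 9 genes are neighbours in part, so they are not independent units.

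**Figure D3:**
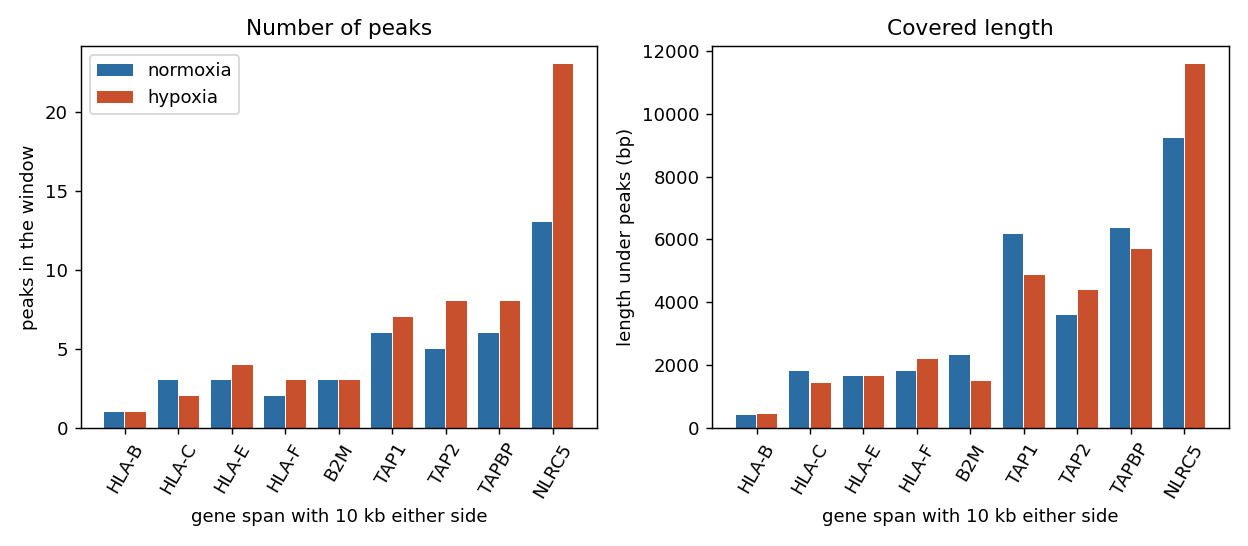
Number of peaks (left) and length under peaks in bp (right) in the window of each gene, which is its span with 10 kb on either side; blue bars are normoxia and orange bars hypoxia, 1 library each, so there are no error bars. NLRC5 has 13 and 23 peaks; TAP1, TAPBP, B2M and HLA-C have less covered length in hypoxia. TAP1 and TAP2 share 3 peaks of each list.

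Most normoxia peaks at these genes had a hypoxia partner. Of the 39 normoxia peaks 31 did (79.5%, 63.5 to 90.7%), against 71.1% near all protein-coding genes. Of the 56 hypoxia peaks 34 had a normoxia partner (60.7%, 46.8 to 73.5%), against 35.7%. The 22 hypoxia peaks without a partner had a median −log10 q-value of 3.71 and a highest one of 7.08, so none was strong. In the whole lists 13.4% of strong hypoxia peaks and 1.66% of strong normoxia peaks had no partner. Near all protein-coding genes 3786 of 35415 strong hypoxia peaks and 345 of 23516 strong normoxia peaks had none. The 27 strong hypoxia peaks at the 9 genes all had a partner, and so did 22 of the 23 strong normoxia peaks, where having one was usual. The exception was the peak upstream of B2M.

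Most partnered peaks stood at nearly the same places. There were 22 one-to-one pairs, 5 normoxia peaks that met more than 1 hypoxia peak (at B2M, PSMB9, RGL2, TAPBP and CPNE2) and 2 hypoxia peaks that spanned more than 1 normoxia peak (at HLA-C and within NLRC5). In the one-to-one pairs the summits were a median of 52 bp apart (27 to 69 bp), with a range of 5 to 132 bp. Of the 22 pairs, 20 were within 100 bp (90.9%), against 66.9% over the whole lists. Members' peaks were stronger than most, and among pairs strong in both lists the medians were 41.5 bp for the 14 at these genes and 42 bp over the whole lists. Of those 14 pairs all were within 100 bp, against 77.6% of such pairs over the whole lists. From each normoxia peak to its strongest partner, split and spanning peaks included, the median was 56 bp over 31 peaks, and from each hypoxia peak 62.5 bp over 34. Of these, 80.6% and 73.5% were within 100 bp, against 62.8% and 61.7% over the whole lists. The largest distances were 778 and 1712 bp.

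The median width was 554 bp in normoxia (467 to 857) and 457 bp in hypoxia (309 to 552), against 356 and 294 bp over the whole lists. In the one-to-one pairs the medians were 637 and 565.5 bp, and the hypoxia peak was the narrower one in 15 of 22 pairs (68.2%). Over the one-to-one pairs of the whole lists the medians were 433 bp in normoxia and 441 bp in hypoxia, and the hypoxia peak was the narrower one in 56.3%. Of pairs strong in both lists it was narrower in 10 of 14 (71.4%), against 69.9% of such pairs over the whole lists. The narrowest peak of each whole list was 245 bp in normoxia and 215 bp in hypoxia. The part of these minimum widths in the difference was not tested.

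**Figure D4:**
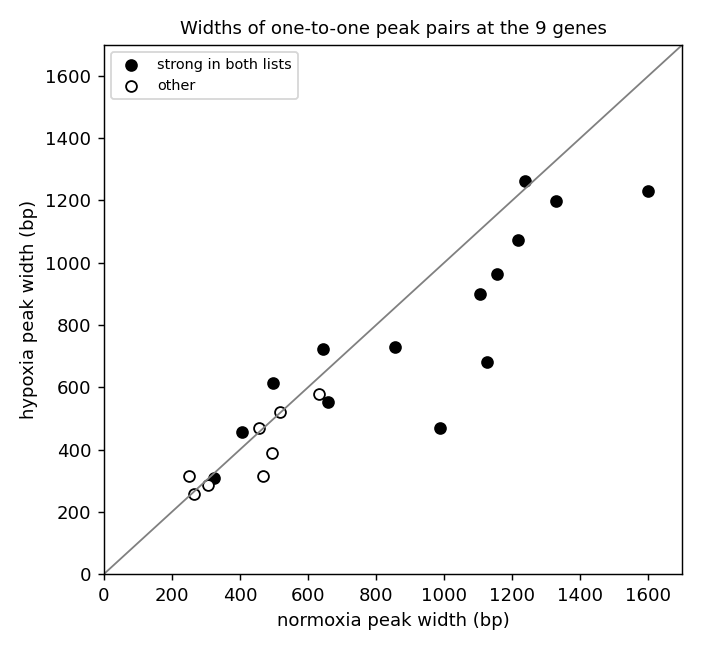
Widths in bp of the 22 one-to-one peak pairs at the 9 genes, normoxia on the horizontal and hypoxia on the vertical axis, with the line of equal width in grey. Filled points are pairs strong in both lists and open points the others; 15 of the 22 points lie below the line.

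The mark lay mainly on the transcribed side of the start. In all 7 genes with a known strand, more of the 1000 bp after the start than of the 1000 bp before it was covered, in both conditions. This was so at 65.9% of starts of genes marked in both lists in normoxia and at 63.3% in hypoxia. The median covered length before the start was 487 bp in normoxia and 95 bp in hypoxia, and after it 975 and 899 bp. These medians are of different genes in the 2 lists. Over all such starts the medians before it were 518.5 and 475 bp, and after it 714 and 631 bp. B2M covered 487 bp before the start in normoxia and 12 bp in hypoxia. HLA-F covered 338 and 65 bp and HLA-C 547 and 375 bp. TAP2 went the other way, with 66 and 95 bp, and HLA-B had 0 in both, whereas TAP1 (917 and 745 bp) and TAPBP (915 and 672 bp) were covered on both sides.

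Other genes of antigen presentation, taken from lists fixed by function, had different counts by group. All 7 genes of peptide supply were marked at the start in both lists. Their windows held 36 normoxia and 35 hypoxia peaks, a ratio of 0.972, partly the same peaks as those of TAP1 and TAP2. PSMB8 and PSMB9, immunoproteasome subunits between and beside the TAP genes, had start folds of 6.08 and 5.00 in normoxia and 9.52 and 6.45 in hypoxia, and for PSMB9 the peak is the one over the TAP1 start. ERAP1, a peptidase that trims peptides in the endoplasmic reticulum, had the highest start folds of the group, 7.86 and 11.3, and its window held 22 and 16 peaks. All 4 loading chaperone genes were marked in both lists, with 18 and 41 peaks. Calnexin (CANX) had the highest start folds among them, 7.29 and 9.12.

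The 5 other class I and stress ligand genes were also marked in both lists, with 14 normoxia and 32 hypoxia peaks. MR1, which presents vitamin metabolites, had the highest start fold in normoxia (5.83). HLA-G, a class I gene of the placenta, had the highest in hypoxia (5.97, against 2.91 in normoxia for another of its listed starts). Its normoxia peak was weak (−log10 q-value 2.08). The HLA-G promoter was 74.7 to 79.2% identical to those of HLA-B, HLA-C and HLA-F, so the same limit on read placement applies. All 5 had at least 2 times as many peaks in hypoxia, against 47.5% of all protein-coding genes. The 13 regulators were marked in both lists, with 99 and 178 peaks. Those without a listed start, CIITA among them, were marked at an end of the span, which may not be the start. The highest start folds were those of RFXAP in normoxia (8.12) and EED in hypoxia (12.7). RFXAP belongs to the complex that binds MHC promoters, and EED to Polycomb repressive complex 2, which can silence them.

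Class II genes, which serve professional antigen-presenting cells, were mostly not marked in either list. Read placement was not examined for these genes, so a missing peak is not read as absence of the mark. Of 9 genes none was marked in both lists, 1 was marked in hypoxia only and 8 in neither, whereas 18.8% of all protein-coding genes were marked in neither and 10.7% in hypoxia only. HLA-DPA1 was the one marked, by a peak with a fold of 4.92 that was not strong (−log10 q-value 8.71). The 9 windows held 2 normoxia and 12 hypoxia peaks, and both normoxia peaks were at CD74, the invariant chain gene. CIITA, the class II transactivator gene, had no listed start. It was marked in both lists at the high-coordinate end of its span (folds 4.65 and 7.51), which may not be its start. Over the 38 companion genes 29 were marked in both lists, near the share of 69.7% over all genes. At least 2 times as many peaks in hypoxia were found for 23 of the 38, against 47.5% of all genes, and the 23 include 7 class II genes with no peak in normoxia.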

How the data were processed

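H4K5ac ChIP-seq peak lists were used, 1 per library, with positions on hg38. MACS2 and SICER are named in the submitters' processing notes; the sources used here do not give their versions or settings, or say whether a control was used. The authors deposited for each peak an integer score (not used), a fold enrichment (a ratio), the −log10 of its p-value and q-value, and the summit position. No read totals are stated.

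Gene spans and promoters came from RefSeq (GRCh38.p14, the assembly of hg38). Of 19974 genes, 79.2% had a listed start; for the rest either span end was used, which can mark a gene at its far end. Pileup and background were solved from fold and p-value, taking fold as (pileup + 1) / (background + 1) and p as a Poisson tail. The code was tested on simulated intervals and pileups. Shares and ratios carry exact Clopper-Pearson intervals and medians exact binomial ones. Overlap and counting used Python 3.11.15, pandas 2.3.3 and scipy 1.17.1.

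The members and lists were chosen with earlier results of these data known. All 9 members are named; of companion lists, genes marked in 1 list only and the highest start fold per list and library, with PSMB8, PSMB9, CIITA and CD74 added after their values were seen. Leaving out NLRC5 and the one-to-one pairing of peaks were also chosen after seeing the data. A marker gene of the lists is not reported here.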

Additional observations from a re-analysis of the deposited data

How the results depend on the processing

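Of 53 values recomputed under other windows, thresholds, list lengths, overlap rules, joining of peaks or member sets, 45 stayed within the interval of the main value or, for counts of genes, within 1.5 times of it, and 8 did not. Keeping only strong peaks moved the share of normoxia peaks with a partner to 91.3%, that of hypoxia peaks to 81.5%, and the median widths to 988 bp in normoxia and 722 bp in hypoxia. Limiting the hypoxia list to the normoxia length moved the hypoxia share to 80.0% and the hypoxia median width to 553 bp. Joining peaks within 500 bp moved the median widths to 1277 bp in normoxia and 745.5 bp in hypoxia. Weak and narrow peaks are removed or joined by these settings. The ratio of peak numbers ranged from 1.03 (equal list lengths) to 1.6 (gene span alone, and also 50000 bp either side, where the interval of 1.20 to 2.14 excluded equality). That last interval held 2.04, the ratio near all protein-coding genes with 10000 bp either side. The summit distances kept within their intervals under every alternative run. Leaving out NLRC5, added after the data were seen, moved no value outside its interval. No paired analysis was possible because each condition had 1 library. Depth limits the weak peaks most: those without a partner had as few as 10 reads at the summit in hypoxia and 12 in normoxia.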

Other observations

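Several strong peaks in the windows belong to neighbours of the 9 genes. The start of HLA-F-AS1, a long non-coding RNA gene that overlaps HLA-F, had a peak of 643 bp in normoxia (fold 4.33, 36 reads) and of 722 bp in hypoxia (fold 5.52, 69 reads), with summits 25 bp apart. The shared interval of PSMB8 and PSMB8-AS1 had peaks of 1218 and 1073 bp, with folds of 6.08 and 9.52 and summits 35 bp apart. Near DAXX, a histone chaperone gene beside TAPBP, the peaks were 857 and 730 bp wide, with folds of 5.95 and 7.32 and summits 10 bp apart. At a peak within 1000 bp of the starts of both PFDN6, a prefoldin subunit gene, and WDR46, the order was the other way, with a fold of 5.35 and 79 reads in normoxia and 3.78 and 47 in hypoxia. These values are descriptions within each library.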
